A study of Mus musculus with 18 samples.

Results

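Aminoacyl-tRNA synthetases join each amino acid to its transfer RNA, the step that gives the ribosome its charged adaptors. A set of these enzymes works in the cytosol, and a nuclear-encoded second set, marked by the suffix 2 in the gene symbols, is imported into mitochondria. In the cytosol several of them are held together in the multisynthetase complex on the scaffold proteins Aimp1, Aimp2 and Eef1e1. In intestinal crypts, whose cells divide and grow fast, Myc is known as a driver of genes for protein synthesis, and E2f1, E2f2 and E2f3 as transcription factors of the cell cycle.

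The genes described here are those whose single symbol on the array follows the naming pattern of the synthetases, such as Aars, Eprs, Farsa or Iars2. The pattern found 35 of the 18193 genes measured, 19 cytosolic (no suffix or the suffix 1) and 16 mitochondrial (the suffix 2), and it used no measured value. The probe set with the highest mean over all arrays stood for a gene. The aspartate enzymes were not analysed here. Kars, for lysine, and Gars, for glycine, are known to make both the cytosolic and the mitochondrial form from a single gene, and are counted with the cytosolic ones.

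Total RNA came from small-intestinal crypts of adult mice aged 2 months, on 18 arrays. The groups were control (n = 4), E2f TKO, with E2f1, E2f2 and E2f3 deleted (n = 5), Myc KO, with Myc deleted (n = 4), and E2f/Myc QKO, with all 4 genes deleted and called QKO here (n = 5). The deletions used Ah-cre, an inducible Cre whose promoter is that of Cyp1a1, and crypts were taken 2 days later. The labels do not say whether the controls carried the Cre or received the inducer, nor whether each array is a separate mouse, so the p-values measure the spread between these arrays. Values are log2 signals as deposited, and replicates are given in the order of their numbers, which has no meaning of its own. Differences are on the log2 scale with the standard error of a limma fit over all genes, and an adjusted p (Benjamini-Hochberg over all 18193 genes) below 0.05 counts as past the test. In whole crypts, less RNA per cell and fewer cells of a type cannot be told apart.

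Array medians were 6.15 to 6.16 in control and 6.14 to 6.19 in E2f TKO. They were 6.22 to 6.26 in Myc KO and 6.23 to 6.26 in QKO, above every array of the other groups. The part of this in the synthetase values was not tested. No detection calls were used. The Myc signal followed the labels: its difference from control was -1.68 ± 0.16, adjusted p = 3.12e-05 for Myc KO crypts and -1.76 ± 0.15, adjusted p = 9.19e-07 for QKO crypts (limma). The deleted E2f genes gave no such check. E2f1, E2f2 and E2f3 differed by -0.24 ± 0.11, adjusted p = 0.321, -0.15 ± 0.13, adjusted p = 0.707 and -0.15 ± 0.19, adjusted p = 0.816 in E2f TKO, and by 0.18 ± 0.11, adjusted p = 0.245, 0.15 ± 0.13, adjusted p = 0.443 and -0.64 ± 0.19, adjusted p = 0.0192 in QKO (limma), so that only E2f3 in QKO passed. Whether these probe sets lie in the deleted parts is not stated, and both groups are called here as labelled. Arrays E2f TKO 2 and 5 went against their label. Their E2f3 signals were 9.35 and 9.10, above the 8.08 to 8.96 of the other 16 arrays, and their Cyp1a1 signals were 5.05 and 4.91 against 12.66 to 14.09. Another array, E2f TKO 1, had the lowest mean signal over the 19 cytosolic synthetase genes of all 18 arrays (10.26) and the lowest over the 16 mitochondrial ones (8.57). The other E2f TKO arrays had cytosolic means of 10.59 to 10.76 and mitochondrial means of 8.89 to 9.04. Calls and counts in the comparisons with E2f TKO are therefore also given without these arrays. Control 1 stood apart in another way: its mean log2 signal over 3 pancreatic acinar genes, of 6 listed, was 13.36, against 7.15 to 7.34 in the other control arrays, 6.82 to 7.59 in E2f TKO, 7.55 to 9.45 in Myc KO and 7.65 to 8.90 in QKO. Markers of the crypt epithelium were high in every group: the mean log2 signal of 8 epithelial genes was 12.09 to 12.38 and that of 4 of 5 listed Paneth cell genes 13.23 to 14.07.

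Promoter stretches of genes that moved in opposite directions are shown first, to let the sequences be read against the values below. Of the 35 genes, 26 matched a promoter in the RefSeq table of build GRCm38.p6, 12 cytosolic and 14 mitochondrial. Each window of 300 bases (250 before the start of the transcript to 50 after) was searched on both strands for CACGTG, the E-box that Myc is known to bind, TGATGNAA, part of the element bound by the stress factor ATF4, and TTTNNCGC, a core of E2F sites. No pair of these matches overlapped in the stretches printed. The 250 bases before the start are printed 5′ to 3′ in the direction of the gene, with matches to these letters in capitals.
Iars, chr13:49681880-49682129, plus strand: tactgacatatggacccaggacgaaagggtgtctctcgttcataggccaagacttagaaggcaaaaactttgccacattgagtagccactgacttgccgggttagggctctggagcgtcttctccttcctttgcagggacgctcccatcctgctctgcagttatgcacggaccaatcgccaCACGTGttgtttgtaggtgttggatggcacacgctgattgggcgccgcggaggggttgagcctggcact
Aars, chr8:111033592-111033841, plus strand: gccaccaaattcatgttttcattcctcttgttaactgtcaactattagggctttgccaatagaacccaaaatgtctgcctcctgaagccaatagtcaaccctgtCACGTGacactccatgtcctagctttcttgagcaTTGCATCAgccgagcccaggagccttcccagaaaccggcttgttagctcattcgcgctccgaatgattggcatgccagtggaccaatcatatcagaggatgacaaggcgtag
Eprs, chr1:185362794-185363043, plus strand: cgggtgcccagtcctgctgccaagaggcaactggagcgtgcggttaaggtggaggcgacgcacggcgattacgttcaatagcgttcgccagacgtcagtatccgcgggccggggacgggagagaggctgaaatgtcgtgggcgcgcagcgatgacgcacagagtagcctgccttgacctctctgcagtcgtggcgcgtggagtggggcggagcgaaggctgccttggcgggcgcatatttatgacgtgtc
Iars2, chr1:185329402-185329651, minus strand: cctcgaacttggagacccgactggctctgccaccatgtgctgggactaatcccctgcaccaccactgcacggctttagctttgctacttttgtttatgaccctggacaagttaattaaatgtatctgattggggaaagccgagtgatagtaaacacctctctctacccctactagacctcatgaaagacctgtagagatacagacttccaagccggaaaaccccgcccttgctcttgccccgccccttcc
Yars2, chr16:16302715-16302964, plus strand: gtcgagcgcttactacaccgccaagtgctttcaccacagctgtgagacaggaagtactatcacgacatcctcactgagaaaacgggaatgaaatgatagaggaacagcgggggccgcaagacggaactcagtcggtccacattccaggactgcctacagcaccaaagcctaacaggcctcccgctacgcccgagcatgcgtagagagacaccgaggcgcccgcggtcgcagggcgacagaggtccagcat

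The Iars and Aars stretches each hold CACGTG, and that of Aars also holds TTGCATCA, the reverse complement of the ATF4 letters. In Iars the ATF4 letters lie just after the start, outside the stretch printed. No match was found in the printed stretches of Eprs, Iars2 and Yars2, which says only that these letters are not in these windows. Iars2 and Eprs both lie on chromosome 1, on opposite strands, with 31998 bases between the annotated genes. Whether other genes lie between them was not examined. Over the whole windows, CACGTG was found in 5 of the 26 genes (Aars, Ears2, Farsb, Iars and Tars), against 7.15% of all 32851 promoters in the table. TGATGNAA was found in 5 of 26 (Aars, Gars, Iars, Tars and Yars), all cytosolic, against 3.97% of all promoters. TTTNNCGC was found in 5 of 26 (Cars2, Fars2, Rars2, Sars2 and Vars2), all mitochondrial, against 5.17%. A match is a description of the letters and not a site shown to be bound.

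Myc KO crypts were set against control crypts first. The fall covered part of the family: of the 35 genes, 10 fell and 1 rose (limma adjusted p below 0.05). Over all 18193 genes, 4.72% fell and 3.59% rose. Since 34 of the 35 lie above the median level, the shares in a fit of the 9096 genes above it are given too: 8.75% fell and 4.07% rose, and in that fit 10 of 34 synthetase genes fell and 1 rose. The median difference was -0.19 over the 35 genes and 0.02 over all genes (-0.13 and -0.003 under quantile normalization, and -0.02 over the genes above the median level), and 31 of the 35 values were below 0. In 20 genes every Myc KO array lay below every control array, against 11.8% of all genes, and in 2 genes every array lay above, against 10.6%. The falls were modest, from 1.22-fold for Qars to 1.55-fold for Iars2.

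**Figure D1:**
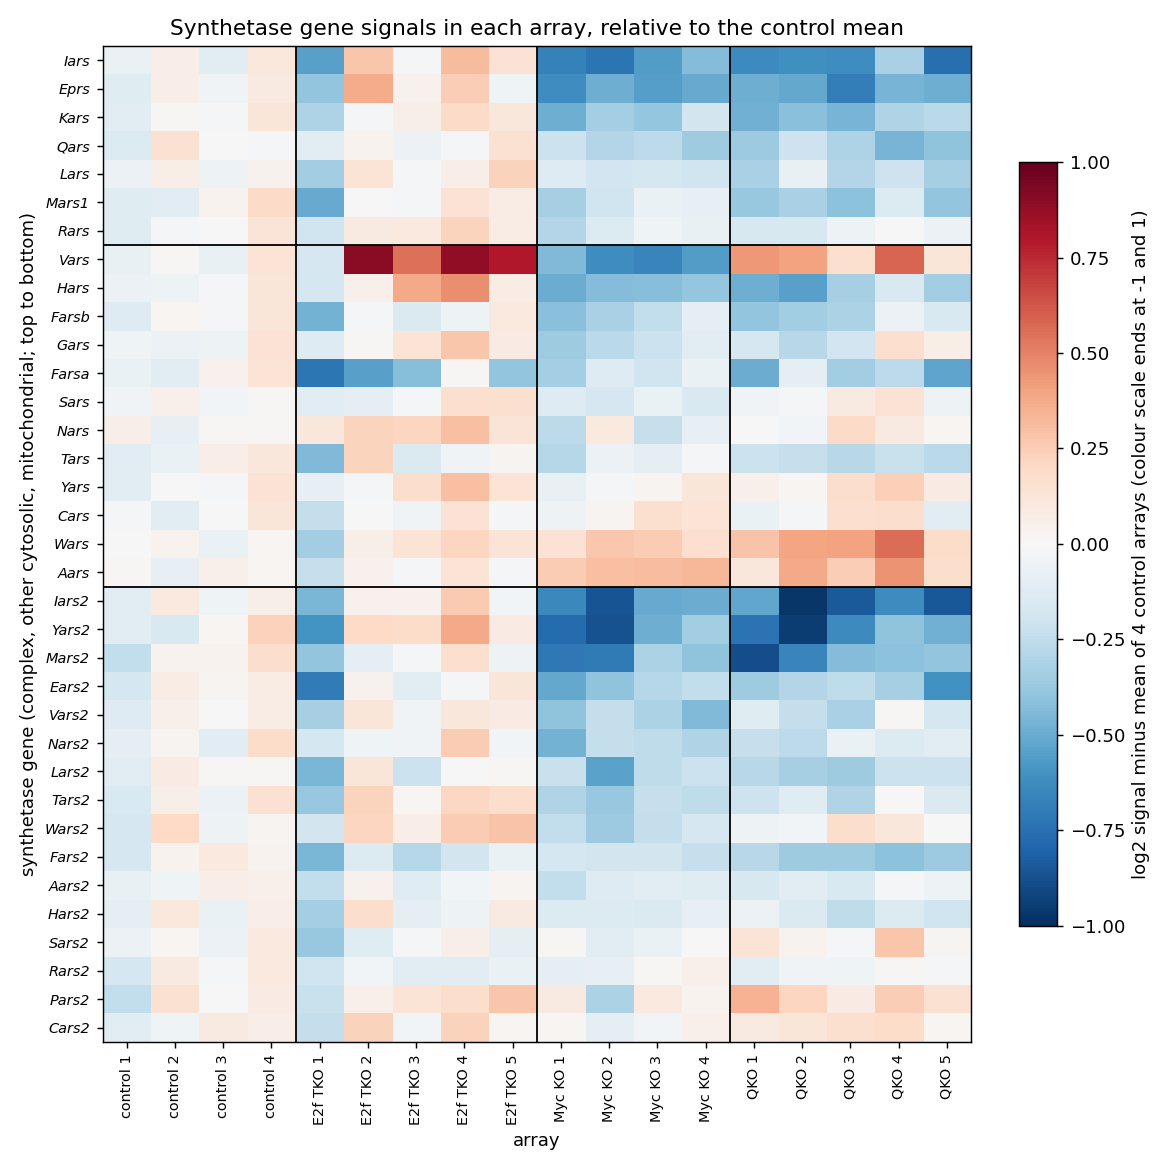
Heat map of the log2 signal of the 35 synthetase genes (rows) in each of the 18 arrays (columns), minus the mean of the 4 control arrays; the colour scale ends at -1 and 1. Blue fills most Myc KO and QKO columns in the complex and mitochondrial blocks, Aars and Wars are red there, and E2f TKO 1 is blue in most rows.

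Among the 7 cytosolic genes whose proteins sit in the multisynthetase complex, 4 fell in Myc KO and 0 rose, with a median of -0.28. This grouping is textbook knowledge applied after the values were known. Iars, which charges isoleucine, read 10.16, 10.30, 10.12 and 10.33 in the control arrays and 9.55, 9.50, 9.67 and 9.80 in Myc KO. All 4 Myc KO arrays lay below all 4 controls, and the difference was -0.60 ± 0.15, adjusted p = 0.0178 (limma). Its signals were 9.69, 10.51, 10.22, 10.54 and 10.37 in E2f TKO and 9.59, 9.62, 9.61, 9.90 and 9.48 in QKO, so that only E2f TKO 1 of its group came near the Myc-deleted arrays. Eprs, a single protein that charges both glutamate and proline, read 10.56, 10.75, 10.66 and 10.78 in control and 10.07, 10.20, 10.14 and 10.19 in Myc KO arrays. The groups did not overlap, at -0.54 ± 0.12, adjusted p = 0.011 (limma). Eprs read 10.29, 11.06, 10.73, 10.94 and 10.65 in E2f TKO and 10.20, 10.18, 9.997, 10.23 and 10.20 in QKO, where the 5 arrays lay within the Myc KO range or just outside it.

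Kars, the lysine enzyme, read 11.05, 11.17, 11.14 and 11.28 in control and 10.68, 10.82, 10.77 and 10.97 in Myc KO arrays, again without overlap. It fell by 0.35 on the log2 scale (limma adjusted p = 0.032). The other groups gave 10.85, 11.15, 11.22, 11.35 and 11.27 for E2f TKO and 10.68, 10.74, 10.70, 10.86 and 10.89 for QKO. Qars charges glutamine. Its signals were 11.38, 11.67, 11.53 and 11.50 in control and 11.30, 11.22, 11.26 and 11.16 in Myc KO arrays, a small difference with no overlap (-0.28 ± 0.08, adjusted p = 0.0289, limma). E2f TKO arrays read 11.41, 11.56, 11.46, 11.50 and 11.67 and QKO arrays 11.16, 11.31, 11.21, 11.06 and 11.12. The other 3 genes of the complex, Lars (leucine), Mars1 (methionine) and Rars (arginine), differed by -0.17 ± 0.10, -0.17 ± 0.12 and -0.14 ± 0.09 in Myc KO and did not pass. Mars1 read 9.82, 9.83, 9.97 and 10.13 in control, 9.61, 9.74, 9.87 and 9.86 in Myc KO, 9.44, 9.94, 9.92, 10.08 and 10.01 in E2f TKO and 9.56, 9.62, 9.53, 9.80 and 9.54 in QKO arrays. Its Myc KO range overlapped control and its QKO range lay wholly below.

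Of the 3 scaffold genes of the complex 1 fell in Myc KO and 1 in QKO, Aimp1 in both, where 4.72% and 12.6% of all genes fell. Among genes above the median level 8.75% and 22.3% fell. The Aimp1 difference in Myc KO was -0.25 ± 0.06, adjusted p = 0.0137 (limma), with all arrays below control. Eef1e1 and Aimp2 also had every Myc KO array below control, but at -0.38 ± 0.14 and -0.28 ± 0.14 they did not pass. In QKO crypts the values were -0.30 ± 0.06, adjusted p = 0.000758 for Aimp1, -0.36 ± 0.13, adjusted p = 0.0502 for Eef1e1 and -0.22 ± 0.13, adjusted p = 0.233 for Aimp2 (limma).

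Outside the complex, 1 of 12 cytosolic genes fell in Myc KO crypts and 1 rose, with a median of -0.12. Hars, the histidine enzyme, fell. Its signals were 10.14, 10.14, 10.18 and 10.32 in control and 9.70, 9.76, 9.77 and 9.81 in Myc KO arrays, which did not overlap (-0.44 ± 0.12, adjusted p = 0.0277, limma). E2f TKO arrays read 10.02, 10.25, 10.57, 10.66 and 10.27 and QKO arrays 9.71, 9.65, 9.87, 10.04 and 9.85. Aars, which charges alanine, went the other way. It read 10.23, 10.13, 10.27 and 10.24 in control and 10.47, 10.52, 10.52 and 10.55 in Myc KO arrays, every one above control (0.30 ± 0.08, adjusted p = 0.0314, limma). E2f TKO arrays gave 9.99, 10.26, 10.20, 10.35 and 10.21 and QKO arrays 10.33, 10.59, 10.47, 10.67 and 10.39. A second Aars probe set also rose in Myc KO, by 0.47. Wars, which charges tryptophan and is known as an interferon-inducible gene, read 10.37, 10.40, 10.30 and 10.39 in control, 10.51, 10.63, 10.62 and 10.53 in Myc KO, 10.02, 10.43, 10.50, 10.58 and 10.49 in E2f TKO and 10.65, 10.76, 10.77, 10.92 and 10.55 in QKO arrays. Each Myc KO array was above control, yet the difference of 0.21 ± 0.10 did not pass (limma adjusted p = 0.222).

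The remaining cytosolic genes did not pass in Myc KO. Vars (valine) came closest, at -0.57 ± 0.18, adjusted p = 0.0538 (limma) with every array below control. Gars and Sars (serine) also had every Myc KO array below control, at -0.24 ± 0.10 and -0.13 ± 0.07. Farsa and Farsb, which encode both chains of the phenylalanine enzyme, differed by -0.18 ± 0.13 and -0.27 ± 0.11. Nars (asparagine), Tars (threonine), Yars (tyrosine) and Cars (cysteine) differed by -0.12 ± 0.08, -0.12 ± 0.10, 0.01 ± 0.08 and 0.07 ± 0.09. With array weights Vars, Gars and Farsb passed as lower and Wars as higher (limma adjusted p = 0.00153, 0.0461, 0.0212 and 0.0395). Vars also passed in the fit of genes above the median level (limma adjusted p = 0.0446).

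Of the 16 mitochondrial genes, 5 fell in Myc KO and 0 rose, and all 16 values were below 0, with a median of -0.27. The largest difference was that of Iars2, the mitochondrial isoleucine enzyme. It read 8.92, 9.13, 8.98 and 9.09 in control and 8.38, 8.16, 8.52 and 8.54 in Myc KO arrays, without overlap (-0.63 ± 0.13, adjusted p = 0.00808, limma). E2f TKO arrays read 8.57, 9.07, 9.07, 9.29 and 9.004 and QKO arrays 8.51, 8.06, 8.19, 8.40 and 8.18. Yars2, for tyrosine, read 9.11, 9.06, 9.23 and 9.45 in control and 8.45, 8.34, 8.73 and 8.87 in Myc KO arrays. These groups were also apart (-0.62 ± 0.18, adjusted p = 0.0382, limma). Its other arrays gave 8.62, 9.41, 9.40, 9.59 and 9.30 in E2f TKO and 8.48, 8.26, 8.58, 8.81 and 8.73 in QKO. A dimmer Yars2 probe set fell further, by 1.35 in Myc KO and 1.33 in QKO.

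Vars2, for valine, read 8.36, 8.53, 8.49 and 8.56 in control and 8.08, 8.24, 8.17 and 8.04 in Myc KO arrays. All Myc KO values were lower (-0.35 ± 0.10, adjusted p = 0.0331, limma). In E2f TKO it read 8.15, 8.60, 8.45, 8.60 and 8.56 and in QKO 8.36, 8.25, 8.16, 8.49 and 8.31, where QKO 4 reached the control range. Nars2, for asparagine, behaved likewise in Myc KO, at 8.76, 8.99, 8.98 and 8.93 against 9.13, 9.26, 9.11 and 9.41 in control (-0.32 ± 0.09, adjusted p = 0.0387, limma). E2f TKO arrays read 9.05, 9.19, 9.19, 9.48 and 9.20 and QKO arrays 8.999, 8.97, 9.16, 9.09 and 9.12, overlapping control. Mars2, for methionine, read 5.54, 5.82, 5.82 and 5.96 in control and 5.07, 5.08, 5.47 and 5.38 in Myc KO arrays (-0.54 ± 0.13, adjusted p = 0.0213, limma). E2f TKO arrays read 5.39, 5.69, 5.77, 5.95 and 5.73 and QKO arrays 4.90, 5.13, 5.35, 5.38 and 5.39. All its signals lay below the array medians, so they are not shown to be above background.

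The other 11 mitochondrial genes did not pass in Myc KO. Ears2 (glutamate), Lars2 (leucine), Tars2 (threonine), Wars2 (tryptophan), Fars2 (phenylalanine) and Aars2 (alanine) had every Myc KO array below control, at -0.36 ± 0.14, -0.31 ± 0.11, -0.29 ± 0.11, -0.25 ± 0.10, -0.19 ± 0.08 and -0.15 ± 0.07. Hars2 differed by -0.13 ± 0.09. Under some alternatives genes of these 11 did pass, all lower. Fars2 passed when its probe sets were averaged (-0.65, limma adjusted p = 0.00173). With array weights Ears2, Fars2, Lars2, Tars2 and Wars2 passed, where calls over all genes rose from 1511 to 3427. The values nearest 0 were those of Sars2 (-0.04 ± 0.09), Rars2 (-0.03 ± 0.07), Pars2 (-0.02 ± 0.11) and Cars2 (-0.01 ± 0.09). Cars2, for cysteine, read 8.63, 8.70, 8.83 and 8.81 in control and 8.76, 8.65, 8.72 and 8.80 in Myc KO arrays, which overlapped fully. It read 8.51, 8.98, 8.72, 8.98 and 8.76 in E2f TKO and 8.83, 8.87, 8.91, 8.93 and 8.76 in QKO.

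**Figure D2:**
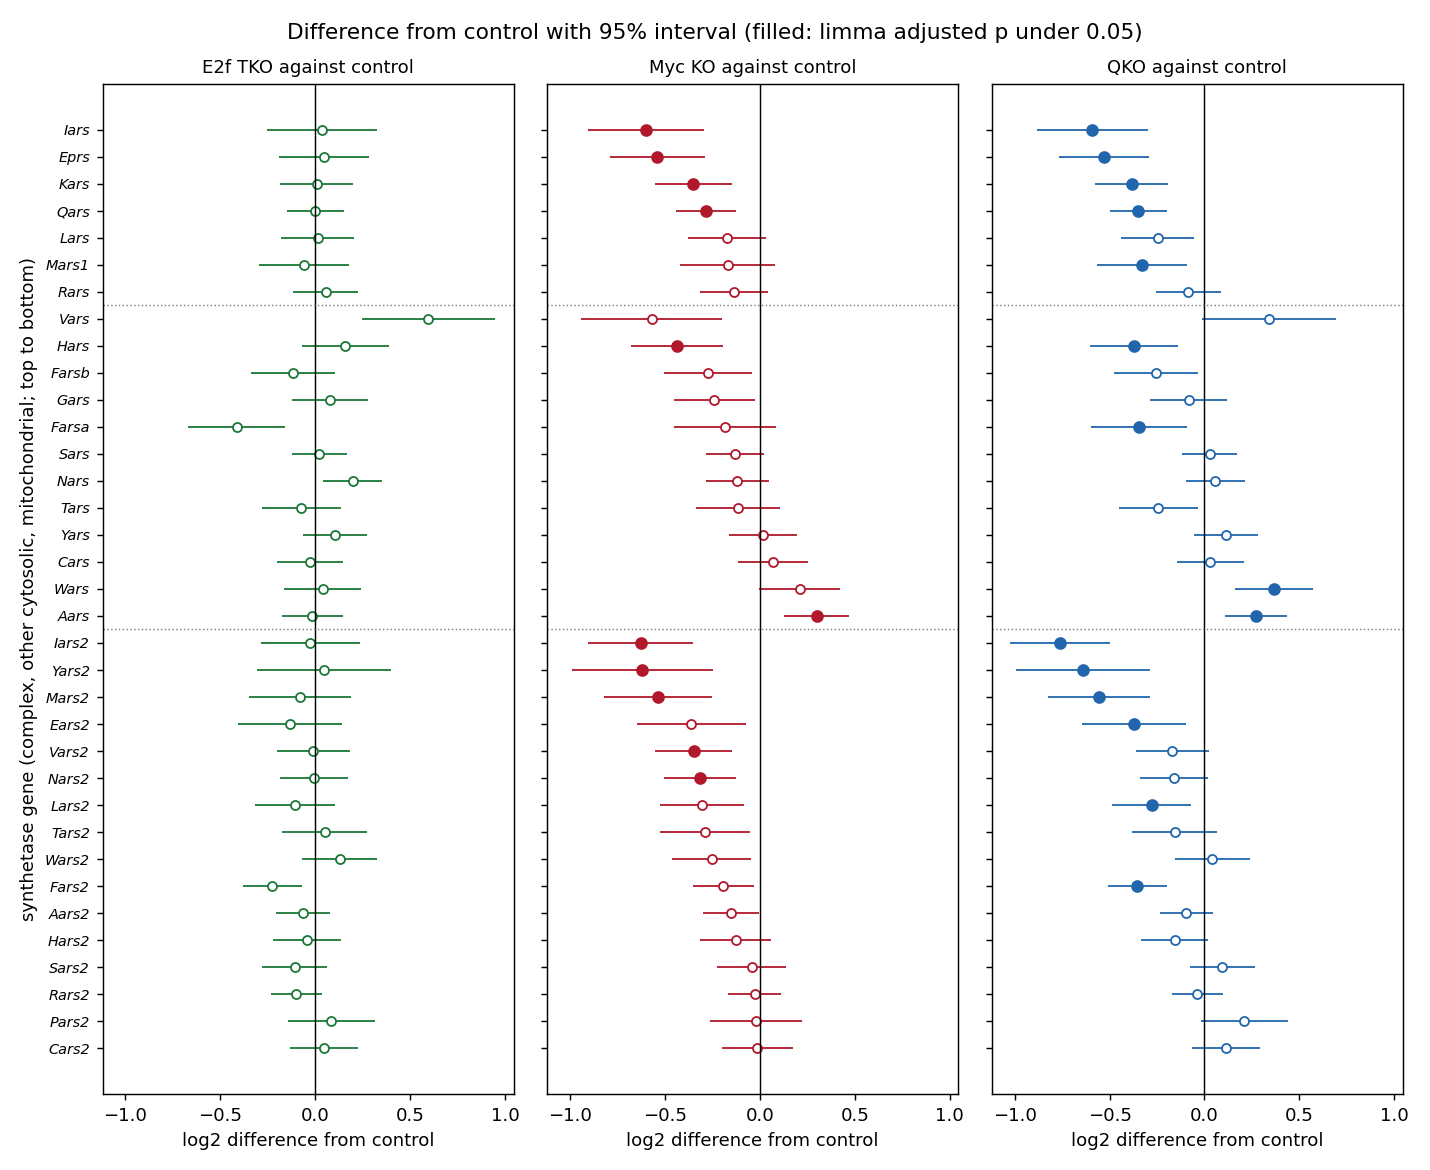
Log2 difference from control (x axis) with its 95% interval for each of the 35 synthetase genes (y axis) in E2f TKO, Myc KO and QKO crypts; filled points passed the limma test. There are 0 filled points for E2f TKO, 11 for Myc KO and 15 for QKO, and Aars is filled on the right in both of the latter.

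The Myc KO count depended on single arrays. It was 11 with all arrays, but 3, 2, 4 and 7 without Myc KO 1, 2, 3 or 4, and 2, 4 and 2 without control 2, 3 or 4. Calls over all 18193 genes dropped too. They numbered 1511 with all arrays, but 855, 640, 1085 and 1299 without Myc KO 1, 2, 3 or 4. Without control 2, 3 or 4 they were 822, 982 and 664. The Aars call was lost without control arrays 1, 2, 3 or 4, or Myc KO arrays 1, 2, 3 or 4 (adjusted p = 0.0508 to 0.0916), that of Hars without control arrays 2, 3 or 4, or Myc KO arrays 1, 2 or 3 (0.0533 to 0.0893) and that of Iars without control arrays 2 or 4, or Myc KO arrays 1 or 2 (0.0512 to 0.0641). That of Kars was lost without control arrays 2, 3 or 4, or Myc KO arrays 1, 2 or 3 (0.0608 to 0.103), that of Mars2 without control arrays 2, 3 or 4, or Myc KO arrays 1 or 2 (0.0518 to 0.0791) and that of Nars2 without control arrays 2 or 4, E2f TKO array 3, or Myc KO arrays 1, 2, 3 or 4 (0.0502 to 0.136). That of Qars was lost without control arrays 2, 3 or 4, or Myc KO arrays 2, 3 or 4 (0.0515 to 0.0958), that of Vars2 without control arrays 2, 3 or 4, or Myc KO arrays 1, 2, 3 or 4 (0.0522 to 0.0985) and that of Yars2 without control arrays 1, 2, 3 or 4, or Myc KO arrays 1, 2 or 3 (0.054 to 0.126). The Eprs and Iars2 calls held in each fit that left out 1 array, and in every other alternative tried. Averaging the probe sets of a gene also ended the calls for Mars2, Nars2 and Vars2, and quantile normalization those for Kars and Qars. Markers of other cells moved with this comparison. The mean log2 signal of 8 enteroendocrine genes was 9.04 to 9.42 in control and 9.52 to 9.80 in Myc KO arrays, where 2 of the 8 rose. That of 5 tuft cell genes was 6.71 to 6.76 in control and 6.93 to 7.003 in Myc KO, where 1 of the 5 rose. For 5 mast cell genes it was 6.32 to 6.66 and 6.63 to 7.89, and 2 of the 5 rose. Over all genes 3.59% rose in Myc KO. The 3 acinar genes did not pass in Myc KO or QKO. Without control 1, 9 synthetase genes fell in Myc KO and 0 rose, where 755 of all 18193 genes fell and 496 rose. The difference of the 3′ and 5′ actin probe sets, which reads RNA integrity, ranged from 0.31 to 0.44 in control arrays and from 0.18 to 0.22 in Myc KO arrays. The part of these in the synthetase values was not tested.

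Joint loss of E2f1, E2f2, E2f3 and Myc was compared with control by the same rule. In QKO crypts 13 of the 35 synthetase genes fell and 2 rose (limma adjusted p below 0.05), where 12.6% of all genes fell and 14.3% rose. Among the 9096 genes above the median level 22.3% fell and 14.97% rose, and in that fit 13 of 34 synthetase genes fell and 2 rose. The median was -0.16, against 0.03 over all genes and -0.04 over those above the median level. Under quantile normalization the split was 8 lower and 3 higher, and the median -0.07, against 0.01 over all genes. In 14 genes every QKO array lay below every control array, against 13% of all genes, and in 2 every array lay above, against 13.2%. QKO and Myc KO were compared with the same control arrays, so their values are given side by side and no overlap is counted.

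Of the 7 complex genes 5 fell in QKO, with a median of -0.35. Iars changed by -0.59 ± 0.14, adjusted p = 0.00453, Eprs by -0.53 ± 0.11, adjusted p = 0.00239, Kars by -0.38 ± 0.09, adjusted p = 0.00504, Qars by -0.35 ± 0.07, adjusted p = 0.00186 and Mars1 by -0.33 ± 0.11, adjusted p = 0.0376 (limma). Lars had every QKO array below control at -0.25 ± 0.09, adjusted p = 0.0548, and Rars differed by -0.09 ± 0.08. Of the 12 other cytosolic genes 2 fell and 2 rose. Hars changed by -0.37 ± 0.11, adjusted p = 0.0181 and Farsa by -0.34 ± 0.12, adjusted p = 0.0425 (limma), though QKO 2 at 9.55 reached the control range of 9.54 to 9.78 for Farsa. The 2 that rose were Wars, at 0.37 ± 0.10, adjusted p = 0.00975, and Aars, at 0.27 ± 0.08, adjusted p = 0.0145 (limma), each with every QKO array above control.

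Among the 16 mitochondrial genes 6 fell in QKO and 0 rose, with a median of -0.16. Iars2 fell most (-0.76 ± 0.12, adjusted p = 0.000309, limma), to 1.69-fold below control. It was followed by Yars2 (-0.64 ± 0.17, adjusted p = 0.00918) and Mars2 (-0.56 ± 0.13, adjusted p = 0.00403, near background). Fars2, the phenylalanine enzyme, read 10.26, 10.46, 10.52 and 10.46 in control and 10.15, 10.07, 10.07, 10.01 and 10.06 in QKO arrays, a difference of -0.35 ± 0.07, adjusted p = 0.00192 (limma). It read 10.25, 10.24, 10.25 and 10.19 in Myc KO and 9.97, 10.29, 10.14, 10.24 and 10.36 in E2f TKO arrays, so that every QKO array lay below every Myc KO array. A dimmer Fars2 probe set fell by 1.31 in QKO and by 1.10 in Myc KO.

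Ears2 also supplies the glutamate step from which mitochondria make glutamine-charged tRNA. It read 8.69, 8.94, 8.89 and 8.94 in control and 8.51, 8.57, 8.61, 8.53 and 8.26 in QKO arrays (-0.37 ± 0.13, adjusted p = 0.0437, limma). Myc KO arrays read 8.36, 8.46, 8.58 and 8.62 and E2f TKO arrays 8.17, 8.91, 8.75, 8.85 and 8.99, with only E2f TKO 1 far below. Lars2 read 9.29, 9.49, 9.42 and 9.42 in control and 9.13, 9.07, 9.05, 9.19 and 9.19 in QKO arrays, a call close to the threshold (-0.28 ± 0.10, adjusted p = 0.0464, limma). Its Myc KO arrays read 9.18, 8.87, 9.15 and 9.19 and its E2f TKO arrays 8.95, 9.52, 9.19, 9.40 and 9.42. The highest mitochondrial value was that of Pars2 (proline), which read 7.98, 8.37, 8.22 and 8.30 in control and 8.57, 8.44, 8.30, 8.47 and 8.37 in QKO arrays. It read 8.31, 7.91, 8.32 and 8.26 in Myc KO and 7.999, 8.27, 8.36, 8.40 and 8.49 in E2f TKO. Control and QKO overlapped and the difference of 0.21 ± 0.11, adjusted p = 0.167 (limma) did not pass.

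The Aars call was lost without control array 2 (adjusted p = 0.0501), that of Ears2 without control arrays 2, 3 or 4, E2f TKO array 3, Myc KO arrays 2 or 3, or QKO arrays 1, 2, 3, 4 or 5 (0.0507 to 0.106) and that of Farsa without control arrays 1, 2, 3 or 4, E2f TKO array 3, Myc KO arrays 2 or 3, or QKO arrays 1, 3 or 5 (0.0502 to 0.124). That of Hars was lost without control array 4 (0.0635), that of Lars2 without control arrays 2, 3 or 4, E2f TKO arrays 3 or 4, Myc KO arrays 1, 3 or 4, or QKO arrays 1, 2, 3, 4 or 5 (0.0501 to 0.119) and that of Mars1 without control arrays 3 or 4, or QKO arrays 1, 2, 3 or 5 (0.0622 to 0.131). The calls for Eprs, Fars2, Iars, Iars2, Kars, Mars2, Qars, Wars and Yars2 held in each fit that left out 1 array. Averaging probe sets ended the calls for Ears2, Farsa (-0.03), Lars2, Qars and Wars, and quantile normalization those for Ears2, Farsa, Hars, Lars2 and Mars1. Wars did not pass on its probe set outside the _s_at and _x_at kinds (0.16, limma adjusted p = 0.278). In QKO arrays the enteroendocrine mean was 9.88 to 10.18 and the tuft mean 7.12 to 7.51, both above control, with 6 of 8 and 5 of 5 genes higher. The mast cell mean was 5.62 to 5.76, below control, with 2 of 5 genes lower. Among 6 crypt stem cell genes 2 rose, Lgr5 and Sox9. Over all genes 14.3% rose and 12.6% fell in QKO. The actin difference was 0.19 to 0.31. Without control 1, 12 synthetase genes fell and 2 rose, where 2131 of all 18193 genes fell and 2284 rose. Their part in these values was not tested.

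**Figure D3:**
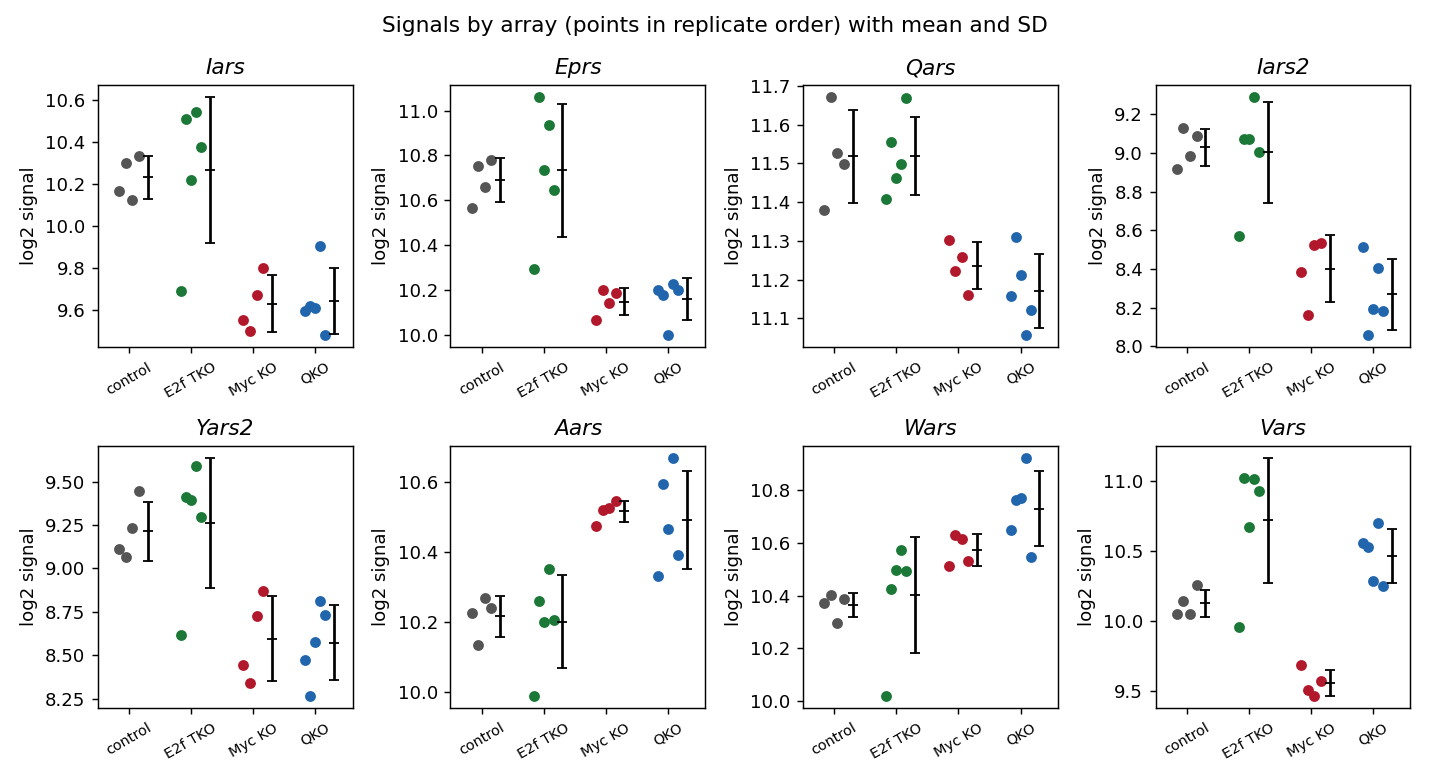
Log2 signal (y axis) of 8 synthetase genes in the control, E2f TKO, Myc KO and QKO arrays, each point an array, with the mean and SD beside each group; y axes differ between genes and do not start at 0. Iars, Eprs, Qars, Iars2 and Yars2 lie lower in all Myc KO and QKO arrays than in control, Aars and Wars lie higher, and Vars lies below control in Myc KO and above it in E2f TKO 2 to 5, with E2f TKO 1 at 9.96 below every control.

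Loss of Myc could also be read in crypts that already lacked E2f1, E2f2 and E2f3, from QKO against E2f TKO. This comparison shares no array with Myc KO against control, though both come from the same fit. Of the 35 genes 9 fell and 2 rose (limma adjusted p below 0.05), where 7.95% of all genes fell and 9.09% rose, and the median was -0.15 against 0.04. Under quantile normalization the median was -0.07 against 0.01. In the fit of genes above the median level 15.3% fell and 10.004% rose, with 8 of 34 synthetase genes lower and 2 higher. The genes that passed in both comparisons in the same direction numbered 9, which is 81.8% of the 11 in each. They were Eprs, Hars, Iars, Iars2, Kars, Mars2, Qars and Yars2, all lower, and Aars, higher. Over all 18193 genes 1006 passed in both in the same direction, 66.6% of the 1511 in Myc KO and 32.5% of the 3100 in QKO against E2f TKO. Across the 35 genes the differences in the 2 comparisons correlated at a Pearson r of 0.91 and a Spearman rho of 0.86, and across all genes at 0.64 and 0.62. Without E2f TKO 1 the shared synthetase genes were 14, or 93.3% of 15 and 70% of 20 (r 0.92, rho 0.88), and over all genes 70.9% and 36.8% (0.67, 0.65). With E2f TKO 2 and 5 left out they were 9, or 69.2% of 13 and 90% of 10 (r 0.86, rho 0.82), and over all genes 42.4% and 37.1% (0.48, 0.49). Whether the synthetases differ in this from other genes was not tested. The genes are not independent replicates, and they share arrays within each comparison.

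In QKO against E2f TKO, Iars2 changed by -0.73 ± 0.12, adjusted p = 0.000652, Yars2 by -0.69 ± 0.16, adjusted p = 0.0071, Iars by -0.63 ± 0.13, adjusted p = 0.00392 and Eprs by -0.57 ± 0.11, adjusted p = 0.0019 (limma). Smaller falls were those of Hars (-0.53 ± 0.10, adjusted p = 0.00261), Mars2 (-0.48 ± 0.12, adjusted p = 0.0122), Kars (-0.39 ± 0.09, adjusted p = 0.00546), Qars (-0.35 ± 0.07, adjusted p = 0.0026) and Lars (-0.26 ± 0.09, adjusted p = 0.0478), by limma. The genes that rose were Wars (0.33 ± 0.09, adjusted p = 0.0202) and Aars (0.29 ± 0.07, adjusted p = 0.0122), by limma. Only Iars2, Eprs and Qars had every QKO array below every E2f TKO array (3 of 35, against 3.64% of all genes), and 0 genes had every QKO array above (5.58% of all genes). For Hars, Iars, Kars and Yars2, E2f TKO 1 was the only array of its group to reach the QKO range. Without E2f TKO 1, 18 genes fell and 2 rose. With E2f TKO 2 and 5 left out, 8 fell and 2 rose. Over all 18193 genes 1447 fell and 1653 rose with all arrays. Without E2f TKO 1 these were 2216 and 2072, and without E2f TKO 2 and 5 they were 962 and 1193. The Lars call was lost without control arrays 1, 2, 3 or 4, E2f TKO arrays 2, 3, 4 or 5, Myc KO arrays 1, 2, 3 or 4, or QKO arrays 1, 3, 4 or 5 (adjusted p = 0.0555 to 0.121) and that of Wars without QKO array 4 (0.0508). Fitted on the 2 groups alone, Aars, Lars and Wars did not pass, and Wars was also lost after averaging probe sets. Tuft cell markers rose in this comparison in 5 of 5 genes and enteroendocrine markers in 3 of 8, where 9.09% of all genes rose. The tuft mean was 6.71 to 7.05 in E2f TKO arrays and the enteroendocrine mean 9.67 to 9.75. The actin difference was 0.26 to 0.78 in E2f TKO and 0.19 to 0.31 in QKO. Their part in the synthetase values was not tested.

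Whether Myc loss acted differently with and without E2f1, E2f2 and E2f3 was tested with the interaction, the difference of QKO from E2f TKO less that of Myc KO from control. Of the 35 genes 0 passed (by limma adjusted p, 1 at an unadjusted p below 0.05, which was Sars2), where 0.0165% of all genes were lower and 0.0385% higher. The interaction was -0.11 ± 0.18 for Iars2 (95% interval -0.48 to 0.27), -0.03 ± 0.16 for Eprs (-0.37 to 0.30), -0.03 ± 0.19 for Iars (-0.44 to 0.38) and -0.01 ± 0.11 for Aars (-0.24 to 0.22). For Yars2 it was -0.07 ± 0.24 (-0.57 to 0.43) and for Sars2 0.25 ± 0.12 (0.00 to 0.49). A p that misses the threshold does not show equal effects, and several of these intervals are as wide as the effects themselves.

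E2f TKO crypts were then set against control. Of the 35 genes 0 passed (limma adjusted p below 0.05), with 4 at an unadjusted p below 0.05, where 1.22% of all genes fell and 1.68% rose. The median was 0.00 to 2 decimals. In 0 of the 35 genes did every E2f TKO array lie below control (2.54% of all genes). A single gene passed when E2f TKO 1 was left out (Vars), when E2f TKO 4 was (Farsa), and when E2f TKO 2 and 5 both were (Fars2). The 4 genes were Vars, Farsa, Fars2 and Nars. Vars, which charges valine, read 10.05, 10.14, 10.05 and 10.26 in control and 9.96, 11.03, 10.68, 11.02 and 10.93 in E2f TKO arrays, with E2f TKO 2 to 5 above every control and E2f TKO 1 below them all. Its difference was 0.60 ± 0.17, adjusted p = 0.0679 (limma), and without E2f TKO 1 it was 0.79 (adjusted p = 0.000259). Farsa read 9.58, 9.54, 9.69 and 9.78 in control, 8.92, 9.11, 9.22, 9.66 and 9.25 in E2f TKO, 9.31, 9.52, 9.45 and 9.58 in Myc KO and 9.15, 9.55, 9.30, 9.38 and 9.12 in QKO arrays. Only E2f TKO 4 reached the control range, and the difference of -0.42 ± 0.12, adjusted p = 0.0804 became -0.52 (adjusted p = 0.00925) without it (limma). Fars2 differed by -0.23 ± 0.07, adjusted p = 0.131, and by -0.31 (adjusted p = 0.0215) with E2f TKO 2 and 5 left out (limma). Nars read 12.29, 12.15, 12.24 and 12.24 in control and 12.35, 12.45, 12.45, 12.53 and 12.36 in E2f TKO arrays, the only gene of the 35 with every E2f TKO array above control (2.89% of all genes had this). At 0.20 ± 0.07, adjusted p = 0.212 it did not pass (limma). Cell markers differed here too. The mast cell mean was 5.27 to 5.998 in E2f TKO against 6.32 to 6.66 in control arrays. The enteroendocrine mean was 9.67 to 9.75 against 9.04 to 9.42, and the tuft means overlapped. The part of these in the synthetase values was not tested.

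Deletion of the E2f genes in crypts that also lacked Myc was read from QKO against Myc KO. A single synthetase gene passed there, Vars, which rose (1 of 35 by limma adjusted p, where 4.6% of all genes rose and 3.09% fell). Every QKO array lay above every Myc KO array in 3 genes, Vars, Wars2 and Sars (7.22% of all genes), and below in 1, Fars2 (6.51%). Vars read 9.68, 9.51, 9.47 and 9.57 in Myc KO and 10.56, 10.53, 10.29, 10.71 and 10.25 in QKO arrays, with no overlap. The difference was 0.91 ± 0.17, adjusted p = 0.00262 (limma), or 1.88-fold, the largest of any of the 35 genes in the 5 pairwise comparisons. Vars was thus high in E2f TKO 2 to 5, lower in QKO, just under control in E2f TKO 1 and lowest in Myc KO. Against control QKO differed by 0.34 ± 0.17, adjusted p = 0.145, and the interaction was 0.31 ± 0.24 (95% interval -0.18 to 0.81). Only 1 probe set measured Vars. Wars2 showed the next highest difference in QKO against Myc KO, at 0.30 ± 0.09, adjusted p = 0.065 (limma), with every QKO array above every Myc KO array. It passed, and the count rose to 2, without E2f TKO 1 (adjusted p = 0.0198). Calls over all genes rose there too, from 1398 to 2008. Wars2 read 7.59, 7.95, 7.70 and 7.78 in control, 7.57, 7.97, 7.82, 8.01 and 8.04 in E2f TKO, 7.51, 7.39, 7.52 and 7.58 in Myc KO and 7.70, 7.73, 7.93, 7.87 and 7.75 in QKO arrays. The mast cell mean was 5.62 to 5.76 in QKO against 6.63 to 7.89 in Myc KO arrays. The tuft mean was 7.12 to 7.51 against 6.93 to 7.003, and the enteroendocrine mean 9.88 to 10.18 against 9.52 to 9.80. The part of these in the synthetase values was not tested.

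**Figure D4:**
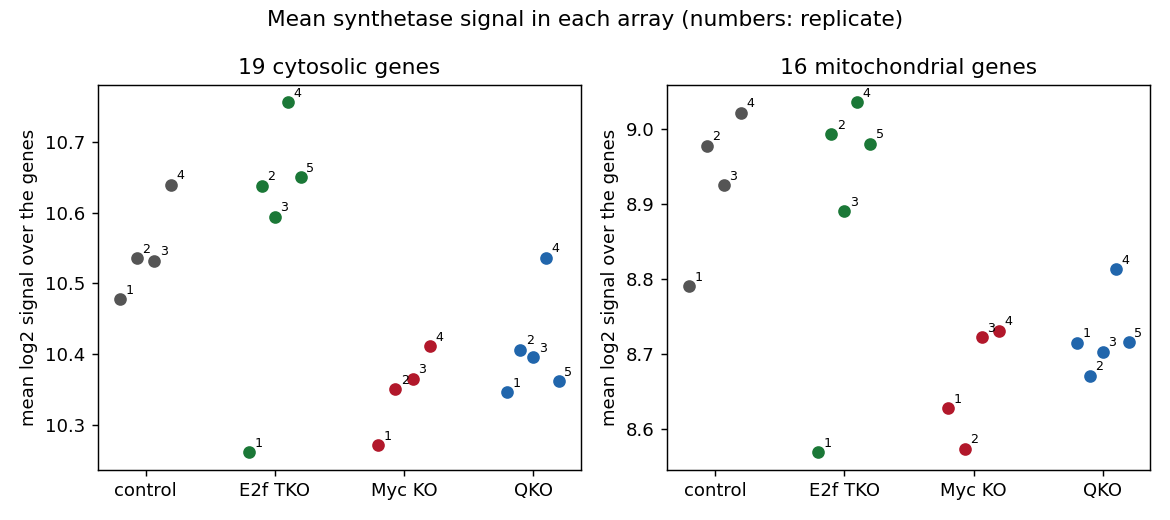
Mean log2 signal over the 19 cytosolic (left) and 16 mitochondrial (right) synthetase genes, each point an array numbered by replicate; y axes do not start at 0. E2f TKO 1 lies lowest in both panels (10.26 and 8.57), apart from the other E2f TKO arrays and close to the lowest Myc KO arrays, and all Myc KO arrays lie below all control arrays.

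Cytosolic and mitochondrial genes were set side by side as classes. The array means over the 19 cytosolic genes were 10.48 to 10.64 in control, 10.27 to 10.41 in Myc KO and 10.35 to 10.54 in QKO. Over the 16 mitochondrial genes they were 8.79 to 9.02, 8.57 to 8.73 and 8.67 to 8.81. In Myc KO 26.3% of the cytosolic and 31.2% of the mitochondrial genes fell, with medians of -0.17 and -0.27. In QKO the shares were 36.8% and 37.5% and the medians -0.24 and -0.16. The mitochondrial median was the lower of the pair under all 26 alternatives in Myc KO and under 2 of 26 in QKO, so no order held for both. The difference between the classes was not tested.

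Genes for the same amino acid were set side by side. Iars and Iars2 both fell in Myc KO and in QKO. Yars2 fell in both while Yars differed from control by 0.01 ± 0.08 and 0.11 ± 0.08. Aars rose in both while Aars2 differed by -0.15 ± 0.07 and -0.10 ± 0.07. Hars fell in both, with Hars2 at -0.13 ± 0.09 and -0.16 ± 0.08. Over 17 pairings of a cytosolic with a mitochondrial gene, which count Eprs and Fars2 in 2 pairings each, the mitochondrial value was the lower in 10 in Myc KO and in 10 in QKO. By the chemistry of the catalytic fold, 6 of 18 class I genes fell in Myc KO and 3 of 16 class II genes, with Eprs, which carries both folds, apart. None of these differences between genes was tested.

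**Figure D5:**
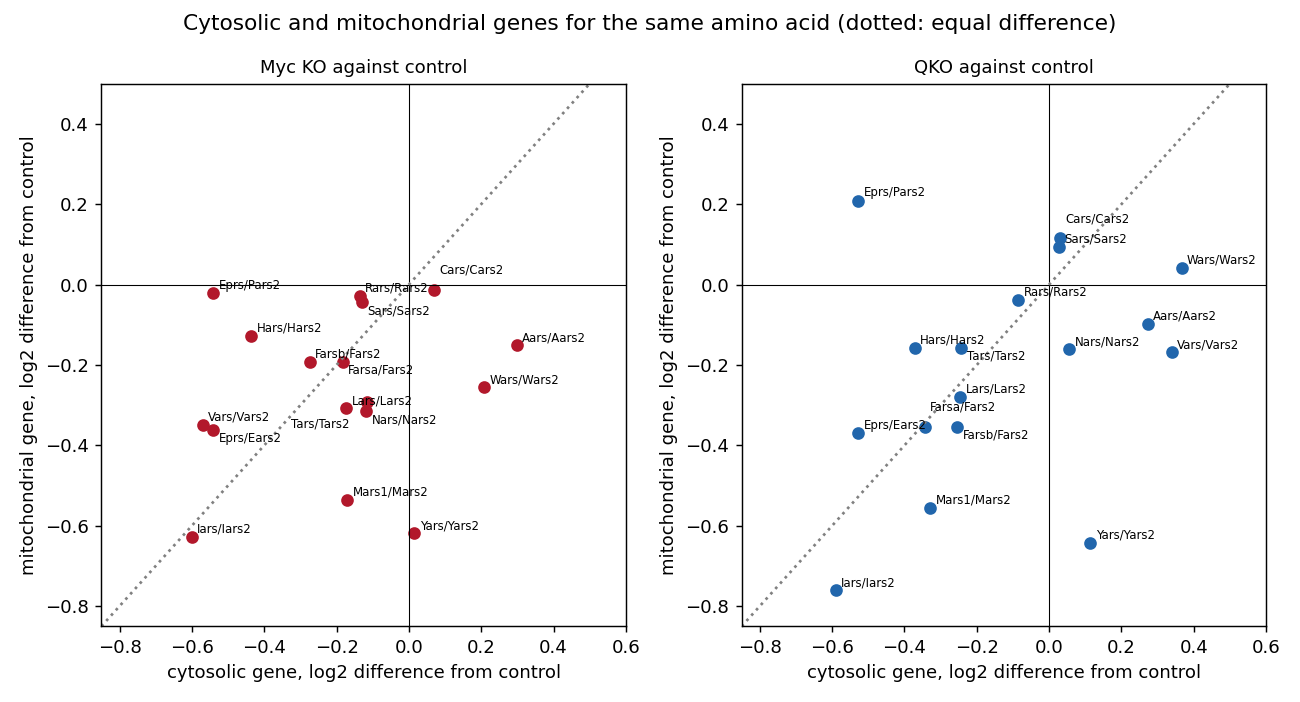
Log2 difference from control of the mitochondrial gene (y axis) against that of the cytosolic gene for the same amino acid (x axis), in Myc KO (left) and QKO (right); each point is a pairing and the dotted line marks equal differences. Iars/Iars2 lies near the line at lower left, Yars/Yars2 lies low at an x near 0, and Aars/Aars2 lies to the right of 0 and below it.

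Other genes that make, modify or use charged tRNA were read from lists, whose medians stand against 0.02 over all genes in Myc KO and 0.03 in QKO. Of 55 measured genes for tRNA modification and processing 14 fell and 0 rose in Myc KO, with a median of -0.22 (25.5% lower, where 4.72% of all genes and 8.75% of those above the median level fell). Trub1 (-0.78 ± 0.14, adjusted p = 0.00358) and Trmt1 (-0.66 ± 0.14, adjusted p = 0.0073), which modify tRNA bases, Rpp40 (-0.81 ± 0.17, adjusted p = 0.0071), a subunit of RNase P, and Xpot (-0.56 ± 0.12, adjusted p = 0.00887), the tRNA exporter, fell (limma). In QKO 18 of the 55 fell and 2 rose, with a median of -0.18 (32.7% lower and 3.64% higher, where 12.6% and 14.3% of all genes and 22.3% and 14.97% of those above the median level did so). In E2f TKO 1 fell and 1 rose, where 1.22% of all genes fell and 1.68% rose. Without E2f TKO 1 it was 2 and 2, and with E2f TKO 2 and 5 left out 4 and 2. Over all genes 222 fell and 305 rose in E2f TKO with all arrays. These were 302 and 528 without E2f TKO 1, and 713 and 609 without E2f TKO 2 and 5. Adat2, the catalytic subunit of a tRNA adenosine deaminase, fell in E2f TKO (-1.21 ± 0.10, adjusted p = 3.04e-06) and in QKO (-1.45 ± 0.10, adjusted p = 1.41e-07) by limma. Trmt1 was the gene that rose in E2f TKO (0.50 ± 0.13, adjusted p = 0.045, limma). Adat2 also fell in E2f TKO without array 1 (-1.12, adjusted p = 1.08e-06) and without arrays 2 and 5 (-1.27, adjusted p = 1.04e-05), while Trmt1 did not pass without arrays 2 and 5 (0.37, adjusted p = 0.112), by limma.

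Of 17 measured partners in editing and delivery of charged tRNA 4 fell in Myc KO and 8 in QKO, with 0 higher in either and medians of -0.21 and -0.25. The shares lower were 23.5% and 47.1%, where 4.72% and 12.6% of all genes fell. Among genes above the median level 8.75% and 22.3% fell. Dtd1 (-1.07 ± 0.14, adjusted p = 0.000438), which removes D-amino acids from tRNA, Eef1b2 (-0.84 ± 0.12, adjusted p = 0.000495), an elongation factor subunit, Qrsl1 (-0.48 ± 0.12, adjusted p = 0.0243), a subunit of the mitochondrial amidotransferase that completes glutamine-tRNA, and Prorsd1 (-0.32 ± 0.09, adjusted p = 0.0407) fell in Myc KO (limma). Gatc, another subunit of that amidotransferase, fell in E2f TKO (-0.26 ± 0.07, adjusted p = 0.0448) and QKO (-0.59 ± 0.07, adjusted p = 1.3e-05), and stood at -0.21 ± 0.07, adjusted p = 0.0726 in Myc KO (limma). Its E2f TKO call was lost without array 1 (-0.22, adjusted p = 0.0663) and held without arrays 2 and 5 (-0.30, adjusted p = 0.0182), by limma. Of 11 measured genes in a list for mitochondrial gene expression, most of them translation factors, 1 fell in Myc KO and 2 in QKO, with medians of -0.20 and -0.12. The shares lower, 9.09% and 18.2%, lie not far from those of genes above the median level (8.75% and 22.3%). The gene that fell in Myc KO, Tfam (-0.46 ± 0.14, adjusted p = 0.0434), is mitochondrial transcription factor A and no translation factor. Tsfm (-0.34 ± 0.08, adjusted p = 0.00721) and Mtif2 (-0.42 ± 0.11, adjusted p = 0.00965) fell in QKO, by limma.

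The ATF4 response is known to raise synthetase genes when amino acids run short. Of 31 measured members 1 fell and 0 rose in Myc KO, with a median of -0.15. The member that fell was Shmt2 (-1.21 ± 0.21, adjusted p = 0.00243, limma), a mitochondrial enzyme of serine breakdown. This is 3.23% lower, under the 4.72% of all genes. In QKO 7 fell and 5 rose, 22.6% and 16.1%, close to the 22.3% and 14.97% of genes above the median level (12.6% and 14.3% of all genes). Among them were Cebpb (-0.58 ± 0.07, adjusted p = 1.35e-05) and Shmt2 (-1.13 ± 0.20, adjusted p = 0.000487) lower and the transporter genes Slc7a11 (0.30 ± 0.07, adjusted p = 0.00704) and Slc1a4 (0.50 ± 0.14, adjusted p = 0.0138) higher (limma). Of 14 measured interferon-gamma genes 0 passed in Myc KO, with a median of 0.25, and 2 fell in QKO, with a median of 0.05 (14.3% lower, near the 12.6% of all genes). Those that fell were Psmb9 (-0.74 ± 0.12, adjusted p = 0.000368) and Tap1 (-0.71 ± 0.25, adjusted p = 0.0402), by limma, while Wars rose in the same arrays. In E2f TKO 2 of the 14 also fell and 0 rose (14.3% lower, where 1.22% of all genes fell). The median of the 14 was 0.004, with 7 values below 0 and 7 above, so the list as a whole did not fall. The 2 that fell were again Tap1 (-1.66 ± 0.25, adjusted p = 0.000812) and Psmb9 (-0.88 ± 0.12, adjusted p = 0.000532), by limma. Both also passed without E2f TKO 1 and without E2f TKO 2 and 5.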

How the data were processed

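Biotin-labelled total RNA from crypts was measured on arrays, per the labels' protocols, and the authors deposited 1 log2 value for each of 45101 probe sets in each of 18 arrays. The log2 scale was inferred from the range, 2.29 to 14.81. How the signals were normalized and summarised is not given in the sources used here, and they entered unchanged, with 0 columns left unmapped. By the platform's annotation 34945 probe sets have 1 gene symbol, 932 several and 9160 none, and 64 are controls. The number of arrays limits the precision.

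Groups came from the titles. The test was limma (version 3.58.1, R 4.3.3), fitted once to the 4 groups and 18193 genes and read two-sided. The deposited values were read with data.table (version 1.17.8), summaries were made with pandas (version 2.3.3) and figures drawn with matplotlib (version 3.10.9) in Python 3.11.15. Dim probe sets stayed in, so all 35 synthetase genes were tested, and 34 pass the filter used as an alternative. Values in every array are given for genes past the test in any comparison whose groups do not overlap, and for the genes at the ends of each class by their difference in Myc KO. Farsa, Fars2, Nars, Pars2, Vars and Wars2 are also given in full in places, chosen after their values were seen. Of each list only some members are named, and these are not always the ones with the smallest p in a comparison. The members, lists and alternatives were chosen with earlier results of these data known. The alternatives were quantile normalization, a filter at the median level, averaging the probe sets of a gene, dropping _s_at and _x_at probe sets, fitting 2 groups alone, a replicate block, array weights, dropping E2f TKO 2 and 5, and leaving out each array in turn. A test of each probe set by itself was added after seeing the data. The fit was tested on simulated data with known changes. Of changes of 0.5 on the log2 scale, 68% to 70.8% passed in the comparisons with control and 31.7% in the interaction. Of changes of 2, 100% and 96.8% passed. Smaller changes, such as many of those described here, can thus be missed.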

Additional observations from a re-analysis of the deposited data

Results flagged for a closer look

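A lone array stood apart from the rest of its group for 11 of 140 combinations of gene and group, by Dixon's test, which flags about 1 in 20 groups by chance. Of these, 3 were in E2f TKO 1. Ears2 read 8.17 in E2f TKO 1, against 8.75 to 8.99 in the other arrays of that group. Mars1 read 9.44 in E2f TKO 1, against 9.92 to 10.08 in the other arrays of that group. Wars read 10.02 in E2f TKO 1, against 10.43 to 10.58 in the other arrays of that group. The other 8 fell in several arrays. Aars2 read 8.13 in Myc KO 1, against 8.25 to 8.27 in the other arrays of that group. Ears2 read 8.26 in QKO 5, against 8.51 to 8.61 in the other arrays of that group. Eprs read 9.997 in QKO 3, against 10.18 to 10.23 in the other arrays of that group. Fars2 read 10.19 in Myc KO 4, against 10.24 to 10.25 in the other arrays of that group. Gars read 11.71 in control 4, against 11.50 to 11.52 in the other arrays of that group. Hars2 read 9.02 in Myc KO 4, against 8.96 to 8.97 in the other arrays of that group. Lars2 read 8.87 in Myc KO 2, against 9.15 to 9.19 in the other arrays of that group. Pars2 read 7.91 in Myc KO 2, against 8.26 to 8.32 in the other arrays of that group. The interaction passed the test in 0 of the 35 genes.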

How the results depend on the processing

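No synthetase gene that passed the test changed direction: of 985 values of called genes under the alternatives, 847 kept their side of the threshold, 138 no longer passed and 0 reversed. For Myc KO against control, 11 genes passed, and the count was 17 with each probe set tested by itself and 20 with array weights. Leaving out 1 array gave 2 to 15, where calls over all genes ran from 640 to 2227, against 1511 with all arrays. For QKO against control 15 passed, and leaving out 1 array gave 10 to 19 (over all genes 4888, and 3636 to 5713). For QKO against E2f TKO 11 passed, and leaving out 1 array gave 9 to 20 (over all genes 3100, and 2185 to 4288). For E2f TKO against control 0 passed, and the count was 3 with array weights, 2 with every probe set, and 1 with the mean of probe sets, with the replicate number as a block, and with E2f TKO 2 and 5 dropped. Leaving out 1 array gave 0 to 1. For QKO against Myc KO 1 passed, and the count was 2 with quantile normalization, with genes above the median level, after averaging probe sets, with array weights and with only the 2 groups fitted, and 3 with every probe set. Leaving out 1 array gave 1 to 2. For the interaction, which a fit of 2 groups cannot give, 0 passed under every other alternative, and leaving out 1 array gave 0 to 0. The cause of these changes was not tested.

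Other calls were lost as follows. In Myc KO: after averaging probe sets those of Mars2 (-0.29, adjusted p = 0.105), Nars2 (-0.19, adjusted p = 0.093) and Vars2 (-0.32, adjusted p = 0.105); under quantile normalization those of Kars (-0.29, adjusted p = 0.0619) and Qars (-0.20, adjusted p = 0.125). In QKO: after averaging probe sets those of Ears2 (-0.11, adjusted p = 0.36), Farsa (-0.03, adjusted p = 0.766), Lars2 (-0.17, adjusted p = 0.0516), Qars (-0.13, adjusted p = 0.108) and Wars (0.21, adjusted p = 0.105); under quantile normalization those of Ears2 (-0.31, adjusted p = 0.0709), Farsa (-0.25, adjusted p = 0.129), Hars (-0.27, adjusted p = 0.0629), Lars2 (-0.19, adjusted p = 0.137) and Mars1 (-0.23, adjusted p = 0.115); without _s_at and _x_at probe sets that of Wars (0.16, adjusted p = 0.278). In QKO against E2f TKO: in a fit of the 2 groups alone those of Aars (0.29, adjusted p = 0.0687), Lars (-0.26, adjusted p = 0.149) and Wars (0.33, adjusted p = 0.0913); after averaging probe sets that of Wars (0.20, adjusted p = 0.125); under quantile normalization that of Lars (-0.16, adjusted p = 0.205); with E2f TKO 2 and 5 dropped that of Lars (-0.14, adjusted p = 0.303); without _s_at and _x_at probe sets that of Wars (0.18, adjusted p = 0.24). Same-numbered arrays share only a number: 13 of 25 pairs deviated together at a correlation above 0.1, with a range of -0.16 to 0.35. With the replicate block the counts were 13 for Myc KO, 17 for QKO, 12 for QKO against E2f TKO, 1 for QKO against Myc KO and 0 for the interaction. Averaging probe sets also brought new calls (limma). Fars2 fell in Myc KO (-0.65, adjusted p = 0.00173) and in QKO against E2f TKO (-0.60, adjusted p = 0.000474). Vars2 fell in QKO (-0.38, adjusted p = 0.0174). Farsa fell in E2f TKO (-0.34, adjusted p = 0.00801) and rose in QKO against E2f TKO (0.31, adjusted p = 0.00368). Wars2 rose in QKO against Myc KO (0.64, adjusted p = 0.00371). Signals near the array medians, such as those of Mars2, limit what a difference can show.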

Other observations

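Where a gene has several probe sets, some disagreed, and adjusted p here is over every probe set with 1 symbol (limma). The brightest Wars2 probe set stood at 0.13 in E2f TKO and 0.04 in QKO against control, while a second rose by 0.73 (adjusted p = 0.0309) and 0.55 (adjusted p = 0.0281). In QKO against Myc KO the second rose by 0.98 (adjusted p = 0.00242), beside Vars at 0.91. Of 4 Qars probe sets, the brightest differed by -0.28 in Myc KO, the next by -0.66, another by 0.02 and the dimmest by 0.07. Of 4 Eprs probe sets, those at -0.54 and -0.64 in Myc KO passed, while another, at a mean signal of 9.48, differed by -0.08. Of 4 Wars probe sets, the brightest and another rose in QKO (0.37 and 0.29), and the others differed by 0.16 and 0.04.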
